A study of Rattus norvegicus with 30 samples.

Results

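The interleukin-6 family is described here through 9 genes of the rat lung, the cytokines Il6, Il11, Lif and Osm, the receptor chains Il6r, Lifr, Osmr and Il6st, and the transcription factor Stat3. They were chosen by name, as the rows whose symbol was in the family list in both the count table and the FPKM table, out of 22914 genes in the count table. All 9 were found once and all 9 were among the 15934 genes with enough reads to be tested.

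RNA was sequenced from lung tissue of 30 male Sprague Dawley rats aged 8 weeks, 1 library per rat, in 10 groups of 3 that combined 5 treatments with 2 times of harvest, at 6 and 24 hours from the operation. In Sham rats the pancreas was only handled, and in Con rats saline went into the biliopancreatic duct. The duct of the SAP rats (severe acute pancreatitis) received 5.0% sodium taurocholate, a bile salt that damages the pancreas, and the DEX and Emo rats received the same infusion. DEX rats were given dexamethasone, a glucocorticoid, at 10 mg/kg by vein, and Emo rats were given emodin, a plant anthraquinone, by gavage. All groups other than DEX had saline by vein, and all groups other than Emo had the gavage vehicle. The labels state the emodin dose as 10 mg/kg in one field and 40 mg/kg in another. Both drugs were due 2 and 12 hours after surgery, so a rat killed at 6 hours had had 1 dose. Libraries held 16813949 to 34692306 reads on genes. Sftpc, the surfactant protein of alveolar type 2 cells, lay between 12733 and 30191 FPKM (fragments scaled to gene length and library depth), whereas the pancreatic enzyme gene Prss1 had no read in 26 libraries and at most 4 reads in the others. Whole lung was sequenced, so more cells of a type and more mRNA per cell cannot be told apart.

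Cytokines of this family signal through receptor complexes that contain the shared chain gp130, the product of Il6st, together with chains such as IL-6R, LIFR and OSMR that differ between the cytokines. The receptor complex activates JAK kinases, which phosphorylate STAT3, and STAT3 enters the nucleus and induces its targets, among them its own inhibitor Socs3. Il6 drives the acute-phase response and is induced by NF-kB, Osm is made largely by neutrophils and macrophages, and Lif and Il11 act on epithelium and stroma. STAT3 activity is set by phosphorylation, which RNA-seq does not measure.

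Fold changes are given as log2 values of the first group minus the second, with the standard error (SE) or 95% confidence interval of edgeR's quasi-likelihood model of all 30 libraries. A gene was called when its Benjamini-Hochberg adjusted p over all genes tested was under 0.05 and its change was at least 2-fold.

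The 250 bases before the RefSeq start are shown for Il6, Osmr and Stat3, a cytokine, a receptor chain and the signal transducer that were called together at 24 hours. The coordinates are those of RefSeq on GRCr8, a later build than that of the deposited tables, and all 3 genes lie on the minus strand, Il6 at chr4:5894576-5894825, Osmr at chr2:57688562-57688811 and Stat3 at chr10:86363360-86363609. Capitals mark matches to any of 5 motifs on either strand: GGG and CC with any 5 bases between them (NF-kB), TGANTCA (AP-1), TTGCNNAA (C/EBP), TTCNNNGAA (STAT), and AGAACA and TGTTCT with any 3 bases between them (glucocorticoid receptor).
Il6: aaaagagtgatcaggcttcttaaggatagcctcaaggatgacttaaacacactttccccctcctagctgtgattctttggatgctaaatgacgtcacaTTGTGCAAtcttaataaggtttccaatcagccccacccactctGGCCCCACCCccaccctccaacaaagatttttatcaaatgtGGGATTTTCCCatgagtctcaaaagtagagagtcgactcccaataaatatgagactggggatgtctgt
Osmr: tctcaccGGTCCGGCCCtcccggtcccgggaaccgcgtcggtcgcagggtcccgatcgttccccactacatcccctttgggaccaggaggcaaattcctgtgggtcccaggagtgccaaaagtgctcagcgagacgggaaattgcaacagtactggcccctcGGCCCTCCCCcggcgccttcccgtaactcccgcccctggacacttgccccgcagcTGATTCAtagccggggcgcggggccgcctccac
Stat3: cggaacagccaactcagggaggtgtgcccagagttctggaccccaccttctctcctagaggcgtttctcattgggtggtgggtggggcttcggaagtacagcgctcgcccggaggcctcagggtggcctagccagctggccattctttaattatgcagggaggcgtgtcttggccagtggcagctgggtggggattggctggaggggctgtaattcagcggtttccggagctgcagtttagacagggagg
The Il6 window held GGGATTTTCC, which started 68 bases before the start and overlapped its neighbour GGATTTTCCC, as well as GGCCCCACCC at 109 bases and the C/EBP letters TTGTGCAA at 152 bases. The Osmr window held the AP-1 letters TGATTCA 33 bases before the start and NF-kB letters at 88 and 243 bases. The Stat3 window matched none of the 5 motifs, and the STAT and glucocorticoid letters were absent from all 3 windows. Among 33469 windows of the same length, NF-kB letters occurred in 42.3%, AP-1 letters in 6.34%, C/EBP letters in 9.22%, STAT letters in 7.67% and the glucocorticoid letters in 0.012%. These matches describe sequence and not binding. RefSeq windows were matched for 7 of the 9 genes and not for Lif and Osm. Of the family windows not shown, that of Lifr held NF-kB letters and that of Il11 AP-1 letters. Those of Il6r and of Il6st, also called at 24 hours, matched none of the 5 motifs.

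**Figure D1:**
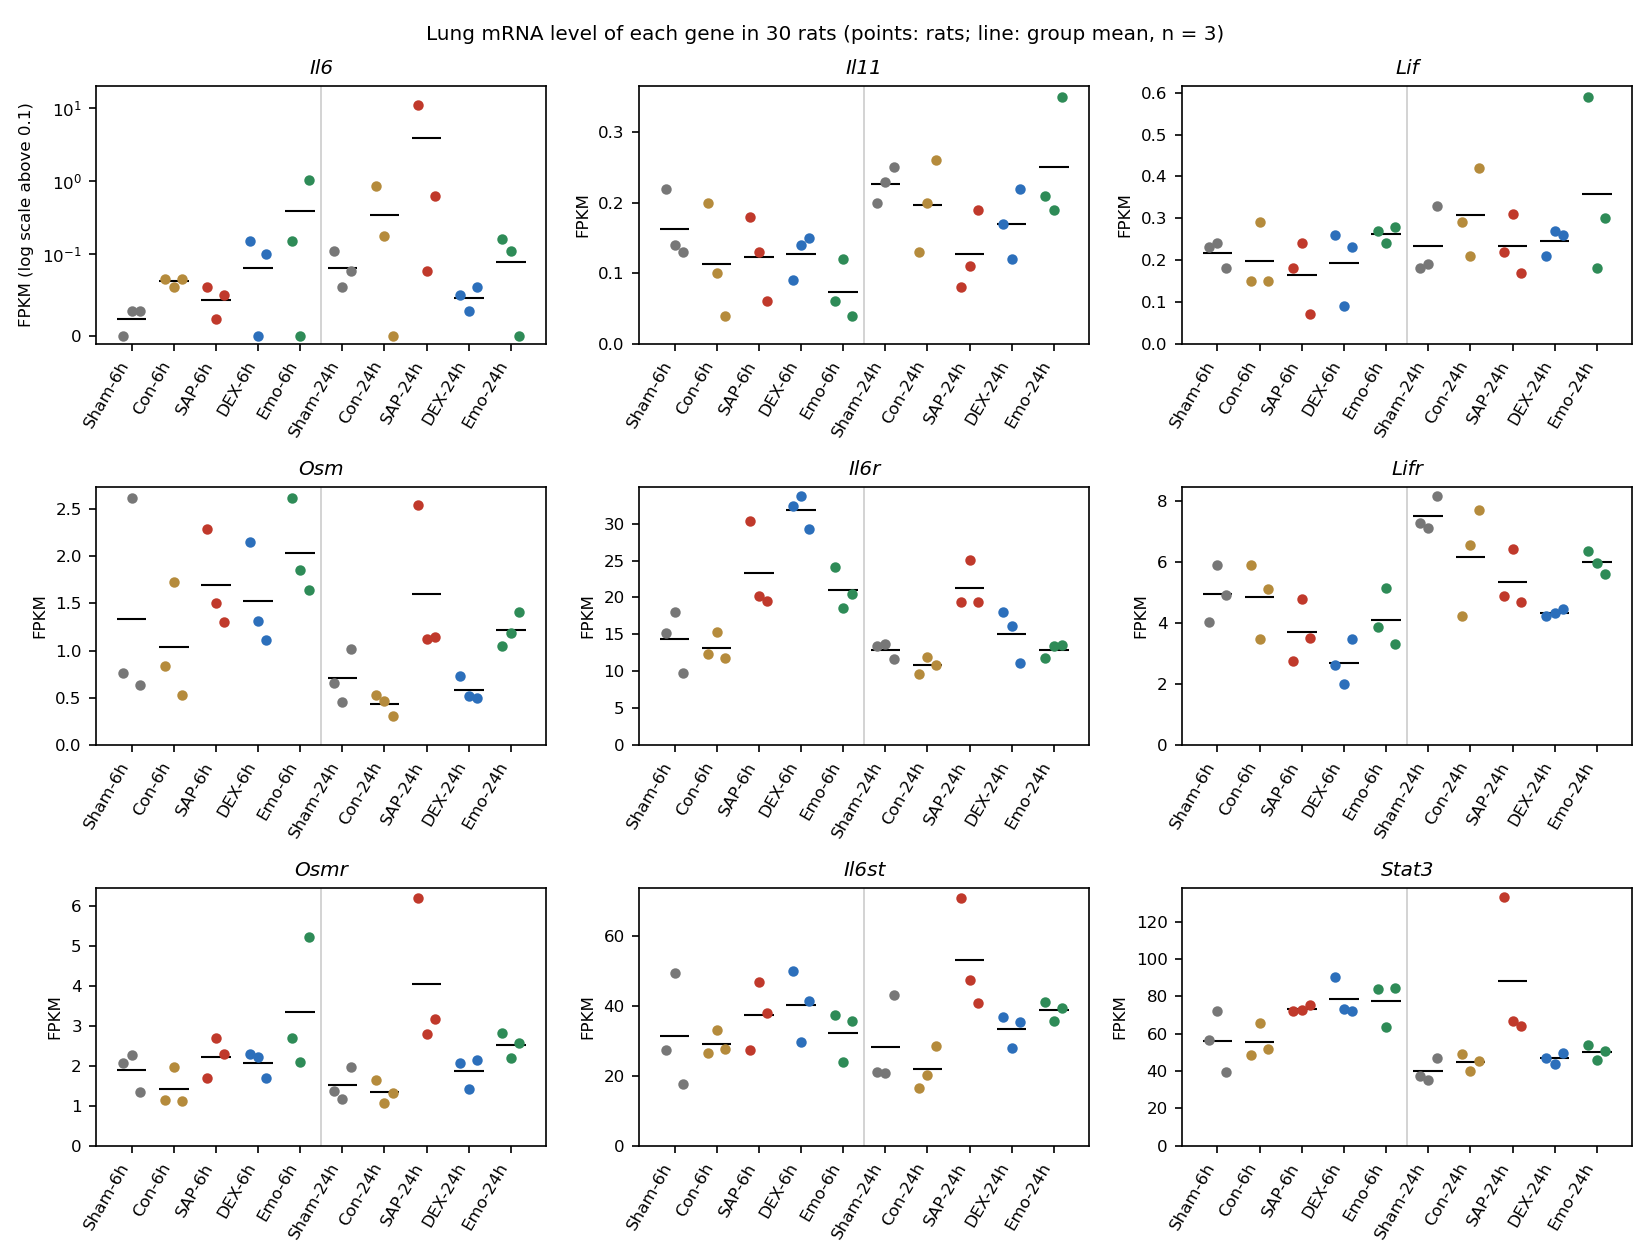
Level of each of the 9 genes in FPKM (y axis, with a logarithmic scale above 0.1 for Il6) in the 10 groups (x axis, 6 hours left of the grey line and 24 hours right of it); points are rats and lines are means of 3. In Il6, Osm, Osmr, Il6st and Stat3 the highest of the 3 SAP-24h points belongs to replicate 1, while Il6r was highest in DEX-6h.

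Pancreatitis and the family at 24 hours were examined first, by comparing SAP-24h with Sham-24h and Con-24h. Against Sham-24h, 4 of the 9 genes were up-regulated (Il6, Osmr, Il6st and Stat3) and none was down-regulated, when 1.98% of all genes tested were called up. Against Con-24h, 6 of 9 were up-regulated, the same 4 and also Osm and Il6r, when 3.65% of all genes were. Without Il6, which passed the filter on low counts only through SAP-24h rats, these were 3 and 5 of 8. Replicate 1 of SAP-24h decided these counts: without it 0 of the 9 genes were called against Sham-24h and 3 against Con-24h (Osmr, Il6st and Il6r), and without Sham-24h replicate 2 the former count was 2. The shares of all genes called belong to the fit with all rats. The median log2 fold change of the 9 genes was 1.05 against Sham-24h and 1.13 against Con-24h, beside -0.03 and -0.01 over all genes. Both medians include Il6. They were the values of Il6st and Stat3, which without replicate 1 stood at 0.73 and 0.63. The FPKM of all 3 SAP-24h rats lay above that of all 3 Sham-24h rats for Il6r, Osm, Osmr and Stat3, an arrangement found in 7.58% of all genes, and below it for Il11 and Lifr, as in 21.8% of all genes. All SAP-24h rats were above all Con-24h rats for 5 of 9 (Il6r, Il6st, Osm, Osmr and Stat3), as in 9.87% of all genes. The spread was shared over all 10 groups: in models of the compared groups alone, 0 of the 9 genes were called against Sham-24h and 1 against Con-24h. The shares of all genes called are not those of these smaller models either, so the lower counts are not read as particular to the family. Both comparisons use the same SAP-24h rats.

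Among the ligands, Il6 (ENSRNOG00000010278, chromosome 4) was nearly silent in most lungs. It had 406, 3 and 23 reads in the 3 SAP-24h rats, 4, 2 and 3 in Sham-24h, and 25, 6 and 0 in Con-24h. SAP-24h replicate 1 alone held most of the reads, and replicate 2 lay within the range of the Sham-24h rats. In FPKM these rats stood at 11.04, 0.08 and 0.63 in SAP-24h and at 0.11, 0.06 and 0.08 in Sham-24h. The edgeR log2 fold change was 5.71 (95% interval 2.72 to 8.71, adjusted p = 0.0141) against Sham-24h and 3.69 (1.08 to 6.29, adjusted p = 0.0383) against Con-24h. Pooled over rats, 432 reads in SAP-24h and 9 in Sham-24h gave a 50.8-fold higher level per effective library size (exact 95% interval 26.5 to 112, counting error only). Without replicate 1 the ratio was 4.42 (2.01 to 10.7) against Sham-24h and 1.08 (0.613 to 1.87) against Con-24h, and neither edgeR call held (adjusted p = 0.328 and 0.972). The call against Sham-24h was also lost without Sham-24h replicate 2 (5.53, adjusted p = 0.062), and that against Con-24h without Con-24h replicate 2 (3.37, adjusted p = 0.146) or 3 (3.11, adjusted p = 0.099). Il6 had 10 or more reads in 4 libraries, SAP-24h replicates 1 and 3, Con-24h replicate 1 and Emo-6h replicate 3, and the filter on low counts asked for 3. Only 2 of the 4 lay outside SAP-24h, so Il6 was tested only through the SAP-24h rats in which it was high, and its calls there are no support for the family's counts. Without a filter, each of its calls in a comparison with SAP-24h was made as well.

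At 6 hours Il6 had 0 to 6 reads in all libraries other than replicate 3 of Emo-6h, which had 36. SAP-6h rats had 2, 1 and 1 reads. Il6 was the single gene of the family called in SAP-24h vs SAP-6h, with a log2 fold change of 6.61 (SE 1.60, adjusted p = 0.018), when 0.684% of all genes were up-regulated, a share that is no measure for a gene tested only through its SAP-24h reads. Without replicate 1 of SAP-24h that change was 3.01 with an adjusted p of 0.238, and the call was also lost without any 1 of the SAP-6h rats (adjusted p of 0.0617 to 0.0704).

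Osm (ENSRNOG00000024390, chromosome 14), encoding oncostatin M, reached 2.55, 1.12 and 1.14 FPKM in SAP-24h. The Sham-24h rats had 0.66, 0.45 and 1.02 FPKM and the Con-24h rats 0.53, 0.46 and 0.30 FPKM. Each SAP-24h rat thus exceeded each of the 6 others, although the margin over the highest Sham-24h rat was narrow. The log2 fold change was 1.33 (SE 0.49) against Sham-24h, which did not pass (adjusted p = 0.0732), and 2.03 (SE 0.51, adjusted p = 0.00676) against Con-24h, which did. Without SAP-24h replicate 1 the latter was 1.45 with an adjusted p of 0.062. The change against Sham-24h also leaned on that rat, since the others, at 1.12 and 1.14 FPKM, were close to the highest Sham-24h rat at 1.02 FPKM. Mean Osm was highest in Emo-6h (2.04 ± 0.514 FPKM, SD, n = 3) and lowest in Con-24h (0.43 ± 0.118 FPKM).

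Lif (ENSRNOG00000007002, chromosome 14) and Il11 (ENSRNOG00000017386, chromosome 1) stayed low. Lif ranged from 0.07 to 0.59 FPKM over the 30 rats, with 3 to 40 reads, and its lowest adjusted p in any of the 21 comparisons was 0.47. Its log2 fold change in SAP-24h vs Sham-24h was 0.13 with an interval of -0.79 to 1.04. Il11 had 2 to 19 reads. It was lower in all 3 SAP-24h rats (0.08, 0.11 and 0.19 FPKM) than in the Sham-24h rats (0.20, 0.23 and 0.25 FPKM), with a log2 fold change of -0.72 (interval -1.71 to 0.28) that did not pass. Il11 was called once, in Emo-24h vs Emo-6h, at 0.21, 0.19 and 0.35 FPKM against 0.06, 0.12 and 0.04 FPKM. That log2 fold change was 1.77 (SE 0.52, adjusted p = 0.011), in a comparison in which 6.33% of all genes were up-regulated, and it rested on 11, 11 and 19 reads against 3, 7 and 2. The call was lost without Emo-6h replicate 3 (adjusted p = 0.0591) or Emo-24h replicate 3 (adjusted p = 0.0687).

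Among the receptor chains other than gp130, Osmr (ENSRNOG00000033192, chromosome 2), the oncostatin M receptor, showed the largest change. It stood at 6.19, 2.80 and 3.18 FPKM in SAP-24h, 1.38, 1.18 and 1.96 in Sham-24h, and 1.64, 1.06 and 1.32 in Con-24h. No SAP-24h rat overlapped with a rat of those groups. Osmr was up-regulated 2.99-fold against Sham-24h (log2 1.58, SE 0.34, adjusted p = 0.00548) and 3.36-fold against Con-24h (log2 1.75, SE 0.35, adjusted p = 0.00164). Without SAP-24h replicate 1, the change remained at 1.08 against Sham-24h (adjusted p = 0.051) and 1.24 against Con-24h (adjusted p = 0.0164), so that the call was kept against Con-24h alone.

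Il6r (ENSRNOG00000020811, chromosome 2), which encodes the interleukin-6 binding chain, gave a smaller and more even change. Levels were 19.4, 25.1 and 19.4 FPKM in SAP-24h, 13.4, 13.7 and 11.6 in Sham-24h, and 9.57, 11.9 and 10.9 in Con-24h. Il6r was 1.80-fold higher than in Sham-24h (log2 0.85, SE 0.21, adjusted p = 0.0107), under the 2-fold minimum, and 2.15-fold higher than in Con-24h (log2 1.10, SE 0.21, adjusted p = 0.00116). Leaving out any single rat left the change against Sham-24h between 0.75 and 0.94, with adjusted p-values of 0.0118 to 0.0354. The call against Con-24h was lost without SAP-24h replicate 2, when the change was 0.99. Lifr (ENSRNOG00000011696, chromosome 2), the LIF receptor chain, was at 4.86, 6.42 and 4.69 FPKM in SAP-24h and at 7.28, 7.12 and 8.14 FPKM in Sham-24h. All SAP-24h rats were lower, but the log2 fold change of -0.37 (interval -0.84 to 0.10) did not pass.

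The shared chain Il6st (ENSRNOG00000013963, chromosome 2) measured 71.0, 47.3 and 40.8 FPKM in SAP-24h. Sham-24h had 21.01, 20.7 and 43.1 FPKM and Con-24h 16.5, 20.3 and 28.6 FPKM. Replicate 3 of Sham-24h thus lay above the lowest SAP-24h rat. Il6st rose 2.07-fold against Sham-24h (log2 1.05, SE 0.32, adjusted p = 0.0364) and 2.69-fold against Con-24h (log2 1.43, SE 0.33, adjusted p = 0.00403). Leaving out 1 rat moved the first of these from 0.73, without SAP-24h replicate 1 (adjusted p = 0.192), to 1.52, without Sham-24h replicate 3 (adjusted p = 0.00863). The call was also lost without Sham-24h replicate 1 (0.88, adjusted p = 0.133) and without Sham-24h replicate 2 (0.88, adjusted p = 0.151).

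Stat3 (ENSRNOG00000019742, chromosome 10) was the most abundant of the 9 genes, with a mean of 61.0 FPKM over all rats. It stood at 133, 66.9 and 64.1 FPKM in SAP-24h, 37.3, 35.2 and 46.8 in Sham-24h, and 49.0, 40.1 and 45.3 in Con-24h. All SAP-24h rats were above the rats of both other groups, which overlapped with each other. The increase was 2.46-fold against Sham-24h (log2 1.30, SE 0.24, adjusted p = 0.00203) and 2.18-fold against Con-24h (log2 1.13, SE 0.23, adjusted p = 0.0022). Without SAP-24h replicate 1 it was 0.81 (adjusted p = 0.0124) and 0.63 (adjusted p = 0.0252), still past the p threshold but under 2-fold.

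**Figure D2:**
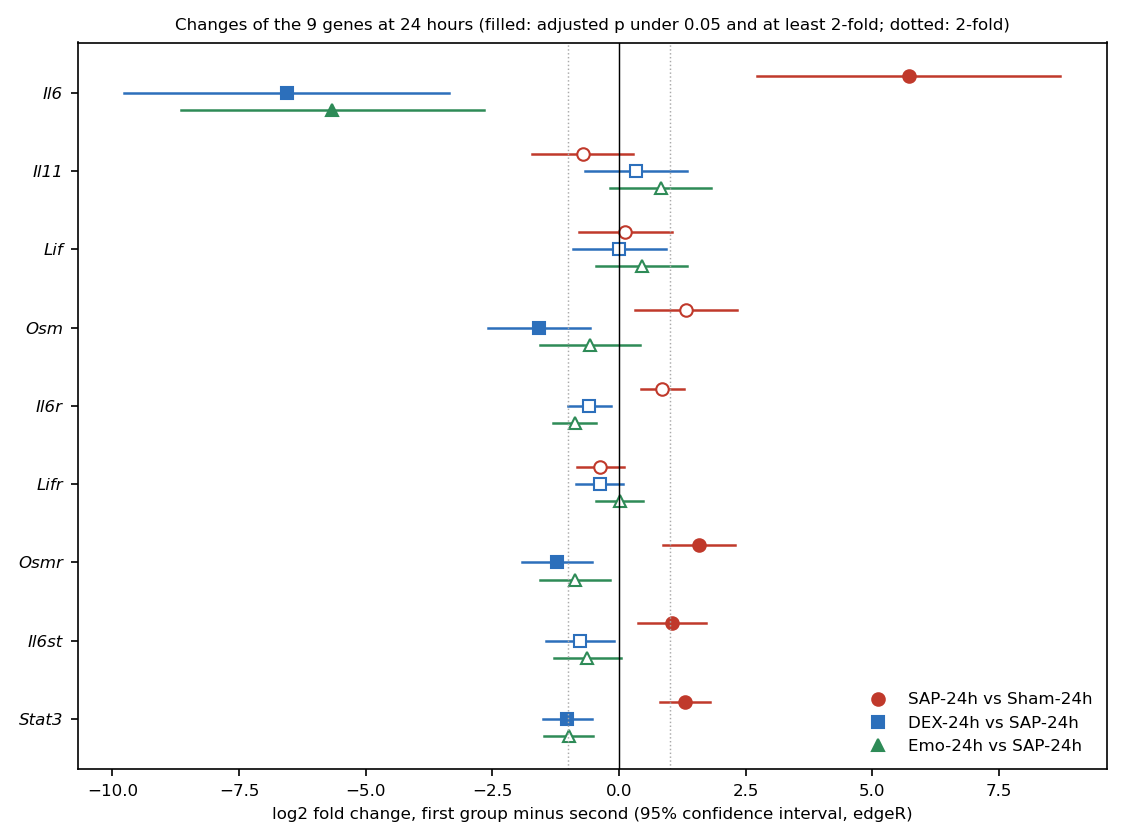
Log2 fold change (x axis, first group minus second) with its 95% confidence interval for each of the 9 genes (rows) in SAP-24h vs Sham-24h (circles), DEX-24h vs SAP-24h (squares) and Emo-24h vs SAP-24h (triangles); filled symbols were called and dotted lines mark a 2-fold change. Il6, Osmr, Il6st and Stat3 have filled circles, from 1.05 for Il6st to 5.71 for Il6, and the Il6 intervals are the widest.

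**Figure D3:**
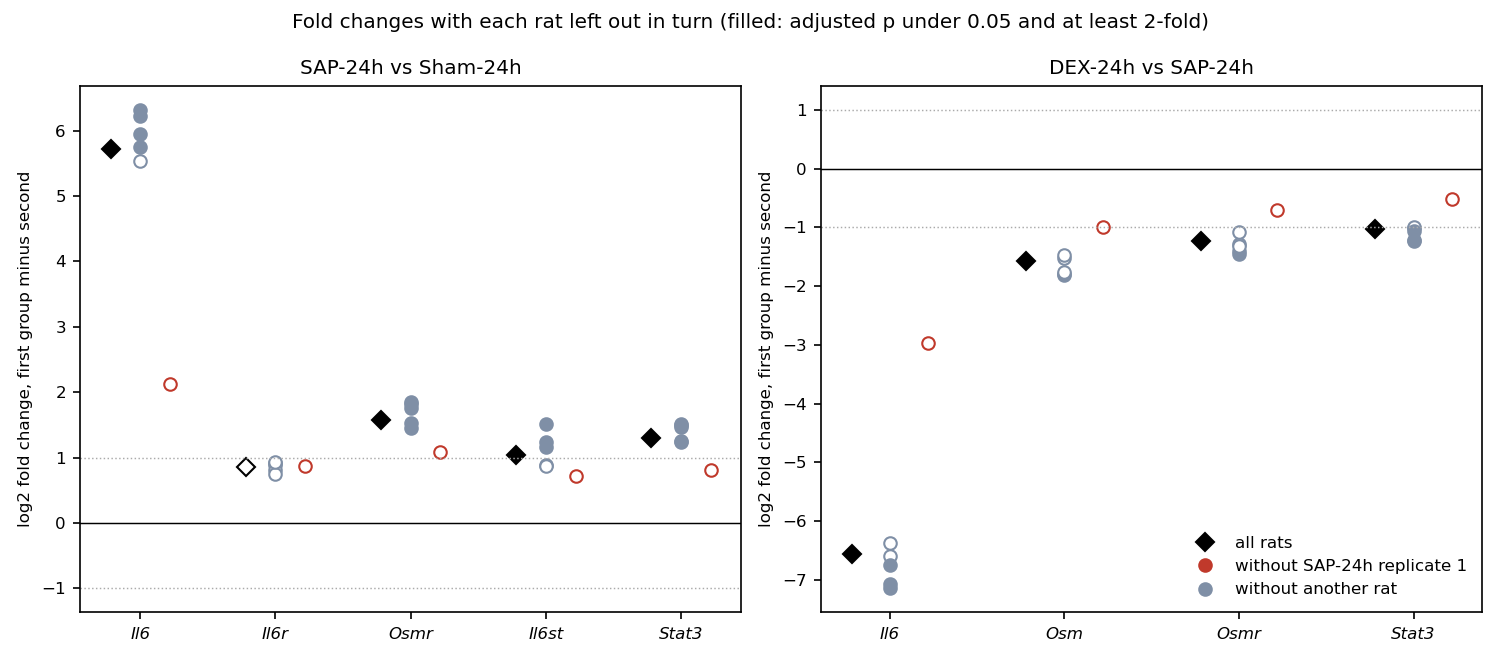
Log2 fold change (y axis, first group minus second) of the genes with an adjusted p under 0.05 in SAP-24h vs Sham-24h (left) and DEX-24h vs SAP-24h (right), with all rats (diamonds), without SAP-24h replicate 1 (red circles) and without each other rat in turn (grey circles); filled symbols were called and dotted lines mark 2-fold. Without replicate 1, the Il6 change falls from 5.71 to 2.13 on the left and that of Stat3 from 1.30 to 0.81, whereas Il6r stays at 0.88.

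The effect of the drugs on the family in pancreatitis was examined by comparing DEX-24h and Emo-24h with SAP-24h. With DEX, 4 of 9 genes were down-regulated (Il6, Osm, Osmr and Stat3) and none was up-regulated, when 2.55% of all genes were called down. With emodin, 1 of 9 was down-regulated (Il6), when 1.26% of all genes were. Without Il6 these were 3 and 0 of 8. With DEX, 0 of 9 were called without SAP-24h replicate 1 or DEX-24h replicate 2, 1 without DEX-24h replicate 1 and 2 without DEX-24h replicate 3. With emodin, 0 were called without SAP-24h replicate 1 or Emo-24h replicate 2, and 2 without SAP-24h replicate 2 or 3. The median log2 fold change of the 9 genes was -0.77 with DEX and -0.62 with emodin, beside 0.00 and 0.02 over all genes. Both medians include Il6 and SAP-24h replicate 1, the highest SAP-24h rat for Il6st, Osm, Osmr and Stat3. FPKM of all 3 DEX-24h rats lay below all 3 SAP-24h rats for Il6r, Il6st, Lifr, Osm, Osmr and Stat3, 6 of the 8 genes other than Il6, an arrangement shown by 8.65% of all genes, and emodin gave it for 2 of these 8 (Il6r and Stat3), as for 6.23% of all genes. Models of the compared groups alone called 0 of 9 with either drug. The 2.55% and 1.26% of all genes belong to the fit with all rats and all groups. No share of all genes is given for the smaller models, so their counts are not read as particular to the family. Both comparisons use the same SAP-24h rats.

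Il6 had 2, 1 and 2 reads in DEX-24h and 5, 4 and 0 in Emo-24h. These counts were close to those of the Sham-24h rats, and the SAP-24h rat with 3 reads lay among the Emo-24h counts. The log2 fold change was -6.56 (SE 1.55, adjusted p = 0.0116) with DEX and -5.66 (SE 1.45, adjusted p = 0.0208) with emodin. Without SAP-24h replicate 1 these were -2.96 (adjusted p = 0.227) and -2.08 (adjusted p = 0.348). Pooled over the rats left, the reads gave SAP-24h ratios of 8.27 (exact 95% interval 3.12 to 27.6) over DEX-24h and 4.25 (1.93 to 10.3) over Emo-24h. These intervals hold counting error only and leave out the spread between rats. Replicate 3, with 23 reads, held most of the SAP-24h reads left, so no drug effect is read from these ratios.

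Osm stood at 0.73, 0.52 and 0.50 FPKM in DEX-24h and at 1.05, 1.19 and 1.41 FPKM in Emo-24h. All DEX-24h rats were below all SAP-24h rats, whereas Emo-24h rats overlapped with them. The log2 fold change was -1.58 (SE 0.49, adjusted p = 0.0491) with DEX and -0.58 (interval -1.56 to 0.41) with emodin. The emodin value rested on SAP-24h replicate 1, as the other SAP-24h rats, at 1.12 and 1.14 FPKM, lay within the Emo-24h range. Osmr was at 2.07, 1.42 and 2.14 FPKM in DEX-24h and at 2.81, 2.19 and 2.57 FPKM in Emo-24h. It fell with DEX (log2 -1.23, SE 0.34, adjusted p = 0.0275), and with emodin the value of -0.87 (SE 0.34) did not pass (adjusted p = 0.102). In SAP-24h Osmr was 6.19 FPKM in replicate 1 and 2.80 and 3.18 FPKM in the others.

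Stat3 was lower in all treated rats, at 47.1, 43.5 and 49.9 FPKM in DEX-24h and 53.7, 45.8 and 50.7 FPKM in Emo-24h. The differences from SAP-24h were nearly equal, with log2 fold changes of -1.03 (SE 0.23, adjusted p = 0.00936) for DEX and -0.99 (SE 0.23, adjusted p = 0.014) for emodin, and the 2-fold minimum ran between them, so that only the first was called. Leaving out SAP-24h replicate 2 or 3, or Emo-24h replicate 1 or 3, took the emodin change past 2-fold (-1.20 to -1.02), whereas it was -0.51 and did not pass without SAP-24h replicate 1 (adjusted p = 0.103), nor did it pass without Emo-24h replicate 2. Il6r was at 18.0, 16.1 and 11.1 FPKM in DEX-24h (log2 -0.58, adjusted p = 0.0812) and at 11.8, 13.3 and 13.5 FPKM in Emo-24h (log2 -0.87, SE 0.21, adjusted p = 0.0143, under 2-fold), where the adjusted p was over 0.05 without Emo-24h replicate 1 or 2, at most 0.066. Il6st was at 36.8, 27.97 and 35.5 FPKM in DEX-24h and 41.0, 35.8 and 39.4 FPKM in Emo-24h, and neither value passed (log2 -0.77, adjusted p = 0.147, and -0.62, adjusted p = 0.218). Without SAP-24h replicate 1, the 3 other DEX calls were lost as well as that of Il6, with Osm at -0.996 (adjusted p = 0.274), Osmr at -0.71 (adjusted p = 0.216) and Stat3 at -0.52 (adjusted p = 0.0962). With 1 DEX-24h rat left out the folds moved little but several calls were lost, those of Osm (-1.76 to -1.47) and Osmr (-1.32 to -1.07) without any 1 of the 3, that of Il6 without replicate 1 or 2 (-6.59 and -6.37), and that of Stat3 without replicate 2 (-0.99). The Il6 call with emodin was likewise lost without any 1 of the Emo-24h rats (adjusted p of 0.059 to 0.0823), at log2 fold changes of -6.26 to -5.16.

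A direct comparison of the drugs, Emo-24h vs DEX-24h, called none of the 9 genes with edgeR or DESeq2, when 5.06% of all genes were called, and 0 of 9 had an unadjusted p under 0.05, as 21.2% of all genes had. In FPKM, Osm, Osmr and Lifr were higher in all 3 Emo-24h rats than in all 3 DEX-24h rats, as 18.6% of all genes were. In CPM (counts scaled to library size) Osm and Lifr stayed apart. Osmr did not, with Emo-24h replicate 2 at 7.29 and DEX-24h replicates 1 and 3 at 7.32 and 7.46. The log2 differences were 1.00 (interval -0.01 to 2.01) for Osm, 0.36 (-0.33 to 1.06) for Osmr and 0.40 (-0.07 to 0.86) for Lifr. For Il6 the difference was 0.90, with an interval from -2.86 to 4.66, which leaves its size undetermined at this depth.

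At 6 hours a single call was made in the 8 comparisons between groups, and it concerned the interleukin-6 receptor chain. Il6r reached 32.4, 33.8 and 29.3 FPKM in DEX-6h, above 15.2, 18.0 and 9.73 FPKM in Sham-6h. Every DEX-6h rat was above every Sham-6h rat, an arrangement found in 10.6% of all genes. The log2 fold change was 1.21 (SE 0.21, adjusted p = 0.00093), when 2.25% of all genes were up-regulated, and it was called again with any single rat left out (1.00 to 1.41). The summed endothelial markers were also higher, at 1546 to 1715 FPKM in DEX-6h and 1288 to 1345 FPKM in Sham-6h. Of these markers 0 of 7 were called up and 1 was called down, when 1.73% of all genes were called down. Their part in the Il6r change was not tested. Taurocholate alone placed Il6r at 30.4, 20.1 and 19.5 FPKM in SAP-6h, with a mean between those of these groups and its highest rat above the lowest DEX-6h rat. SAP-6h differed from Sham-6h by 0.77 (SE 0.21, adjusted p = 0.108), and DEX-6h from SAP-6h by 0.44 (interval 0.02 to 0.86, adjusted p = 0.387), so neither step passed on its own. By 24 hours Il6r had fallen to 18.0, 16.1 and 11.1 FPKM in DEX rats (DEX-24h vs DEX-6h, log2 -1.06, SE 0.21, adjusted p = 0.000972), or by 0.88 without DEX-24h replicate 3, under 2-fold.

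Lifr took the opposite course to Il6r in DEX rats, but a higher mean at 24 than at 6 hours was not confined to them. Mean Lifr was 7.51 against 4.94 FPKM in Sham, 6.14 against 4.83 in Con, 5.32 against 3.68 in SAP and 5.97 against 4.10 in Emo. Whether the rise in DEX rats differed from that in Sham or Con was not tested. It was lowest in DEX-6h, with 2.62, 1.98 and 3.46 FPKM against 4.03, 5.88 and 4.92 FPKM in Sham-6h (log2 -0.85, SE 0.23, adjusted p = 0.022, under 2-fold), and leaving out 1 rat gave -1.03 to -0.66. The change passed 2-fold without DEX-6h replicate 3, and its adjusted p was over 0.05 without Sham-6h replicate 2, DEX-6h replicate 1 or DEX-6h replicate 2, at most 0.0969. It was also lower at 24 hours in DEX than in Sham rats, with 4.21, 4.32 and 4.46 FPKM against 7.28, 7.12 and 8.14 (log2 -0.76, SE 0.23, adjusted p = 0.0432). Within DEX rats it was 1.64-fold higher at the later time (log2 0.72, adjusted p = 0.0237), or 0.54 to 0.90 on the log2 scale with 1 rat left out, with adjusted p-values up to 0.132. The 24-hour difference from Sham-24h did not pass once a rat was left out (adjusted p of 0.073 to 0.16).

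In the other 7 comparisons at 6 hours edgeR and DESeq2 called none of the 9 genes, and the number with an unadjusted p under 0.05 was counted as well. In Con-6h vs Sham-6h it was 0 of 9, against 8.61% of all genes, and 0% of all genes were called by edgeR. In SAP-6h it was 1 of 9 against Sham-6h (13.1% of all genes, 0.22% called) and 3 of 9 against Con-6h (10.4%, 0.163% called). Treated rats gave 1 of 9 in DEX-6h vs SAP-6h (12.1%, 0.515% called), 0 of 9 in Emo-6h vs SAP-6h (13.5%, 0.0251% called), 2 of 9 in Emo-6h vs DEX-6h (17.3%, 1.41% called) and 5 of 9 in Emo-6h vs Sham-6h (22.6%, 0.477% called). Stat3 was at 72.1, 72.6 and 75.3 FPKM in SAP-6h, above all Con-6h rats (48.7, 65.6 and 51.7 FPKM), with a log2 fold change of 0.49 (adjusted p = 0.469). Il6r was also higher in all SAP-6h rats than in all Con-6h rats, an arrangement found in 5.08% of all genes. Con vs Sham at 24 hours, DEX-24h vs Sham-24h and Emo-24h vs Sham-24h called none of the 9 genes with edgeR or DESeq2, when 1%, 4.15% and 0% of all genes were called, and 0, 1 and 1 of 9 had an unadjusted p under 0.05, as 27%, 19.9% and 3% of all genes had. Sham and Con rats compared between the times also gave no call among the 9 by either tool, when 0.257% and 0.00628% of all genes were called, and 1 of 9 had an unadjusted p under 0.05 in each, as 20.4% and 10.5% of all genes had.

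Within DEX rats Osm fell from 2.15, 1.31 and 1.11 FPKM at 6 hours to 0.73, 0.52 and 0.50 FPKM at 24 hours (log2 -1.38, SE 0.49, adjusted p = 0.0398). With Il6r this made 2 of 9 genes down-regulated in DEX-24h vs DEX-6h, when 3.91% of all genes were. Mean Osm was lower at 24 than at 6 hours in the other treatments as well, where it was not called. The means were 0.71 against 1.34 FPKM in Sham, 0.43 against 1.03 in Con, 1.60 against 1.70 in SAP and 1.22 against 2.04 in Emo. Mean Stat3 was lower at 24 than at 6 hours in every group other than SAP, at 39.8 against 56.1 FPKM in Sham (log2 -0.47, adjusted p = 0.257) and 44.8 against 55.3 FPKM in Con (log2 -0.25, adjusted p = 0.763), neither passing. The change passed on its adjusted p in both drug groups, with log2 fold changes of -0.73 in DEX (adjusted p = 0.0236) and -0.67 in Emo (adjusted p = 0.0281), under 2-fold in each. Whether the drug groups differed in this from Sham or Con was not tested. With 1 rat left out these lay between -0.82 and -0.61 in DEX (adjusted p up to 0.0946) and between -0.84 and -0.60 in Emo (adjusted p up to 0.0949). Il6r was lower in Emo rats as well (log2 -0.75, adjusted p = 0.0075). The Osm call was lost on its p-value in 5 of 6 cases when a rat was left out, at log2 fold changes of -1.56 to -1.04, and held without DEX-6h replicate 3.

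Whether effects differed between the times was tested with interaction contrasts. The change of the emodin effect, Emo vs SAP at 24 hours minus that at 6 hours, was called for Il6 alone (log2 -8.79, SE 2.15, adjusted p = 0.0326), when 0.621% of all genes were called in that direction. SAP-24h, through which alone Il6 passed the filter on low counts, is a term of this contrast, so nothing is read from that share, and 0 of the 9 genes were called in a model of the compared groups alone. Most Il6 reads were in 2 libraries, replicate 1 of SAP-24h with 406 reads and replicate 3 of Emo-6h with 36. Without the first it was -5.19 (adjusted p = 0.108) and without the second -6.43 (adjusted p = 0.166), and the call was also lost without any 1 of 5 other rats (adjusted p of 0.0511 to 0.122). The changes of the SAP and DEX effects called none of the 9 genes with edgeR, and 2 and 5 of them had an unadjusted p under 0.05. Of all genes, edgeR called 0.0314% and 0.138%, and 12.6% and 13.6% had an unadjusted p under 0.05. DESeq2 called 0 and 3 of the 9, and 0.529% and 0.751% of all genes.

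The levels of the 9 genes fell into 3 ranges on the FPKM scale. Stat3, Il6st and Il6r had means of 61.0, 34.6 and 17.7 FPKM over all rats. Lifr, Osmr and Osm followed with 4.95, 2.22 and 1.22 FPKM, and Il6, Lif and Il11 with 0.509, 0.241 and 0.157 FPKM. The Il6 mean depends on SAP-24h replicate 1, and by their medians Il6 came last of these 3, at 0.065 FPKM against 0.235 for Lif and 0.145 for Il11. When groups were ordered by their mean, SAP-24h stood first for Il6, Il6st, Osmr and Stat3, DEX-6h for Il6r, Emo-6h for Osm, Sham-24h for Lifr, and Emo-24h for Il11 and Lif. Con-24h stood last for Il6r, Il6st, Osm and Osmr. Of the 9 neighbouring pairs in each order, no pair was free of overlap between rats, with the exception of Emo-6h above DEX-24h for Il6r.

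The rest of the pathway was followed through gene lists. Of 23 STAT3 targets tested, 11 were up-regulated and none down-regulated in SAP-24h vs Sham-24h, with a median log2 fold change of 1.55 beside -0.03 over all genes, of which 1.98% were up-regulated. Without SAP-24h replicate 1, 9 of 23 were up-regulated and the median was 1.24. DEX-24h vs SAP-24h had 7 of 23 down-regulated (median -0.93, with 2.55% of all genes down-regulated) and Emo-24h vs SAP-24h 10 of 23 (median -1.28, with 1.26% of all genes), none being up-regulated in either, and without replicate 1 these were 4 (median -0.46) and 6 (median -0.77). In SAP-6h vs Sham-6h none of the 23 was called, when 0.22% of all genes were, and the median was 0.52 beside -0.02 over all genes.

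Socs3, the inhibitor that STAT3 induces, rose to 287, 104 and 89.6 FPKM in SAP-24h from 17.5, 9.79 and 33.1 FPKM in Sham-24h. All 3 SAP-24h rats were high, including replicate 2, whose lung Il6 count was 3 reads. What raised Socs3 was not tested. The log2 fold change was 3.16 (SE 0.56, adjusted p = 0.00167), and 2.36 without replicate 1 (adjusted p = 0.0112). Socs3 fell to 24.3, 15.3 and 19.9 FPKM in DEX-24h (log2 -3.14, SE 0.55, adjusted p = 0.00154) and to 53.1, 52.2 and 52.9 FPKM in Emo-24h (log2 -1.79, SE 0.53, adjusted p = 0.0376). Without replicate 1 the DEX change was -2.32 (adjusted p = 0.0108) and the emodin change -0.996 (adjusted p = 0.242).

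Bcl3, an NF-kB cofactor, was at 63.3, 27.3 and 46.6 FPKM in SAP-24h and at 5.95, 5.12 and 12.7 FPKM in Sham-24h (log2 2.67, SE 0.42, adjusted p = 0.000938). It was lower with DEX (log2 -2.73) and with emodin (log2 -1.84), and these 3 calls held without replicate 1. Timp1, an inhibitor of metalloproteinases, rose by 2.66 (SE 0.42) and fell by 1.81 on the log2 scale with DEX and by 2.08 with emodin, and the DEX call was lost without replicate 1 (-1.17, adjusted p = 0.078). Cebpd, a transcription factor of the acute-phase response, fell by 2.04 with emodin and was not called with DEX, which alone does not show that the drugs differed. Fga, a fibrinogen chain, had the largest fitted change of the list against Sham-24h, but with 40, 5 and 9 reads against 0, 0 and 1 it was barely measured. As background, Socs3, Bcl3 and Timp1 are also induced by other cytokines.

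**Figure D4:**
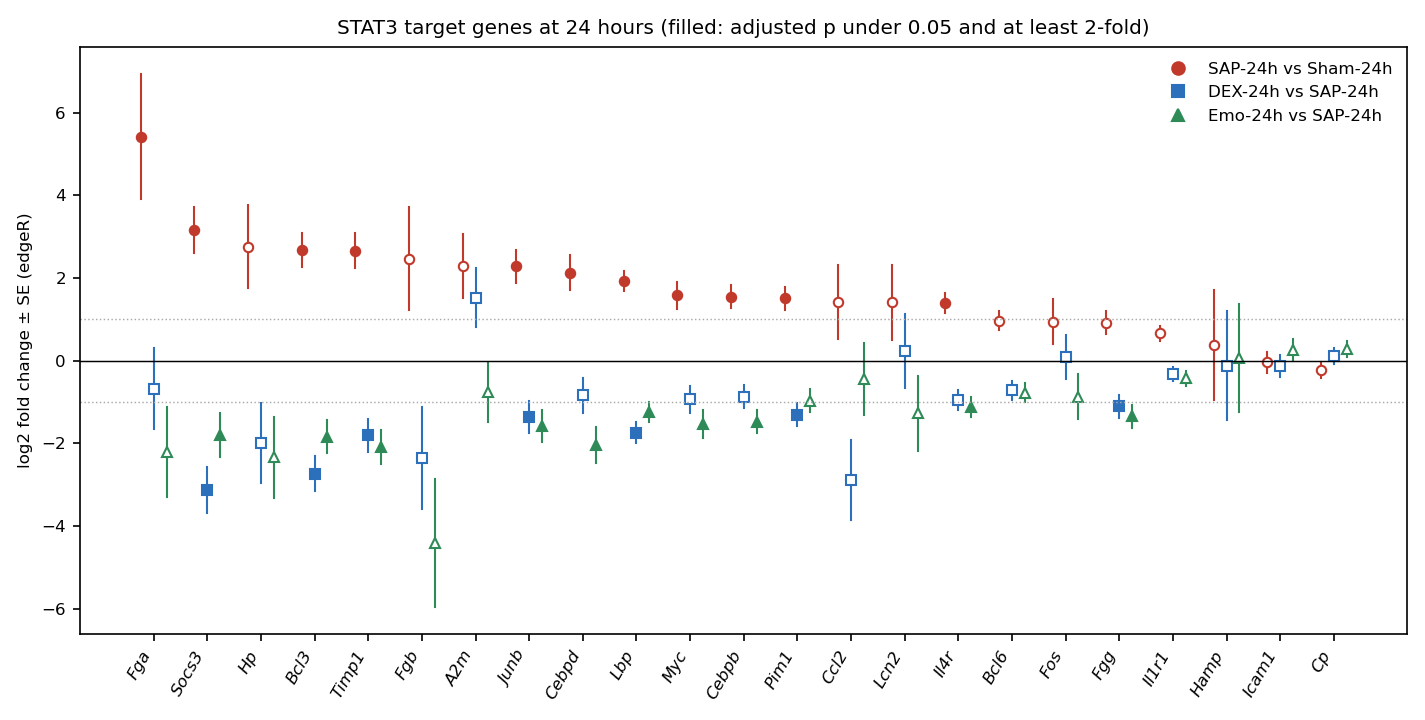
Log2 fold change (y axis, first group minus second) with its SE for the 23 STAT3 target genes tested (x axis) in SAP-24h vs Sham-24h (circles), DEX-24h vs SAP-24h (squares) and Emo-24h vs SAP-24h (triangles); filled symbols were called and dotted lines mark 2-fold. Filled circles lie above 0 for 11 genes, and filled squares and triangles lie below 0 for 7 and 10 genes.

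Of 7 feedback inhibitors tested, Socs3 and Socs2 were up-regulated in SAP-24h vs Sham-24h, 1 was down-regulated with DEX (Socs3) and 2 with emodin (Socs3 and Socs2), when 1.98%, 2.55% and 1.26% of all genes were called in those directions. Without replicate 1 of SAP-24h, 1 was down-regulated with DEX and 0 with emodin. Socs2 rose by 1.24 (adjusted p = 0.017), and by 0.69 without replicate 1 (adjusted p = 0.165). None of the 9 kinases and adaptors tested was called in SAP-24h vs Sham-24h, and the median was 0.23. None of the receptor-shedding proteases (2 tested) or of the other receptor chains (3 tested) was called in that comparison. Among 6 other cytokines of the family, Ebi3, a subunit of interleukin-27, was called (log2 3.44, adjusted p = 0.0189) on the strength of replicate 3 of SAP-24h, with 39.0 FPKM against 1.82 and 1.52 in the others, which overlapped with Sham-24h (0.74 to 1.78).

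Upstream of Il6, 1 of 8 inducers tested was up-regulated in SAP-24h vs Sham-24h (Myd88, an adaptor of Toll-like receptors, log2 1.02, adjusted p = 0.00199), when 1.98% of all genes were, and none was without replicate 1. All 3 genes tested for control of Il6 mRNA stability were up-regulated in the same comparison: Arid5a, which stabilises it, by 2.08 (adjusted p = 0.00285), and Zfp36 and Zc3h12a, which destabilise it, by 1.52 (adjusted p = 0.0132) and 1.50 (adjusted p = 0.00106). Without replicate 1, Arid5a and Zc3h12a remained called. As a check of exposure, glucocorticoid targets gave 3 of 7 up-regulated in DEX-6h vs Sham-6h (Fkbp5 2.01, Pdk4 1.69 and Per1 1.01) and 5 of 7 down-regulated in Emo-24h vs DEX-24h, when 2.25% and 1.24% of all genes were. Against SAP rats of the same time, 1 of 7 was up-regulated with DEX, namely Sgk1, by 1.02 at 6 hours (adjusted p = 0.0158) and by 1.92 at 24 hours (adjusted p = 2.2e-05), when 0.27% and 1.18% of all genes were up-regulated.

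Cell type markers that moved in the same comparisons are given here, and their part in the results was not tested. In SAP-24h vs Sham-24h, 0 of 8 neutrophil markers were called with a median log2 fold change of 1.90, and their summed level was 4478 to 16331 FPKM in SAP-24h and 194 to 9259 FPKM in Sham-24h. Against Con-24h, where the sum was 95.6 to 951 FPKM, 8 of 8 were up-regulated when 3.65% of all genes were, and 7 of 8 without replicate 1. Against Sham-24h, 4 of 6 T cell markers and 2 of 6 fibroblast markers were down-regulated and 2 of 8 macrophage and monocyte markers were up-regulated, and without replicate 1 these counts were 1, 0 and 3. With all rats, 3.01% of all genes were down-regulated and 1.98% up-regulated in that comparison. In the drug comparisons the neutrophil sum was 1016 to 2981 FPKM in DEX-24h, below all SAP-24h rats, and 4272 to 6607 FPKM in Emo-24h, and 0 of 8 neutrophil markers were called with either drug (medians -1.93 and -1.21 against SAP-24h, and -1.98 and -1.11 without replicate 1). DEX-24h vs SAP-24h had 2 of 8 macrophage and monocyte markers (Itgax and Fcgr1a) and 3 of 5 B cell markers down-regulated (2.55% of all genes were), or 2 and 2 without replicate 1. Emo-24h vs SAP-24h had 1 of 8 macrophage and monocyte markers (Cd14) down-regulated and 2 of 6 T cell markers up-regulated (1.26% of all genes were down-regulated and 1.93% up-regulated), or 2 and 0 without replicate 1. DEX-24h vs DEX-6h had 5 of 6 T cell, 5 of 5 B cell and 3 of 6 fibroblast markers down-regulated and 1 of 8 macrophage and monocyte markers up-regulated, when 3.91% of all genes were down-regulated and 3.23% up-regulated. The sums of that comparison did not overlap for T cells (11.3 to 17.6 FPKM in DEX-24h and 43.7 to 51.7 in DEX-6h), B cells (5.44 to 12.2 and 33.4 to 61.0), or macrophages and monocytes (173 to 254 and 269 to 303), while the neutrophil sums did (1016 to 2981 and 1051 to 3004). Replicate 1 of SAP-24h had the lowest sum of alveolar type 1 markers of its group, 1373 FPKM against 2854 and 2720 FPKM.

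Other summed markers did not overlap between the groups of a comparison in which family genes were called. Against Sham-24h, the SAP-24h rats were higher in macrophage and monocyte markers (248 to 358 against 222 to 236 FPKM) and in ciliated and club cell markers, and lower in T cell (17.5 to 20.99 against 56.2 to 83.7 FPKM) and mesothelial markers. Against Con-24h they were higher in macrophage and monocyte markers and lower in endothelial, alveolar type 1, mesothelial and T cell markers. With DEX at 24 hours the endothelial sum was higher than in SAP-24h and the B cell and ciliated and club cell sums were lower, and with emodin the T and B cell sums were higher and the ciliated and club cell sum lower. In SAP-24h vs SAP-6h the neutrophil sum (4478 to 16331 against 1938 to 4392 FPKM) and the ciliated and club cell sum were higher, and the endothelial, T cell, B cell and red blood cell sums lower. In DEX-24h vs DEX-6h the endothelial sum was lower too. In Emo-24h vs Emo-6h, where Il11 was called, the neutrophil sum (4272 to 6607 against 1307 to 3755 FPKM) and the heart muscle sum were higher, and the macrophage and monocyte (218 to 262 against 287 to 387 FPKM), endothelial, mesothelial and red blood cell sums were lower. The part of these lists in the calls was not tested.

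Osm followed the neutrophil markers over the 30 libraries with Pearson's r = 0.70 on log2 scales (Spearman's rho = 0.67), and with r = 0.62 for deviations from the group means. Osmr and Il6st each had r = 0.70 with the same markers (0.48 and 0.44 for the deviations), and Osm had r = 0.66 with the macrophage and monocyte markers (rho = 0.70, and 0.24 for the deviations). Correlations with the summed alveolar type 1 markers were negative and, with all rats, about as strong, with r = -0.75 for Il6st, -0.68 for Osmr, -0.65 for Stat3 and -0.64 for Osm (-0.66, -0.69, -0.80 and -0.67 for the deviations). Without SAP-24h replicate 1 they were weaker, at -0.65, -0.53, -0.46 and -0.59 in the same order. The neutrophil correlations of Osm, Osmr and Il6st were then 0.67 each. For the alveolar type 2 markers r lay between -0.43 and -0.16 for Il6st, Osmr, Stat3 and Osm, and between -0.70 and -0.66 for the deviations. Without SAP-24h replicate 1 it lay between -0.39 and -0.06. The mesothelial markers gave r = -0.71 for Il6st, -0.67 for Osmr, -0.62 for Stat3 and -0.60 for Osm (-0.43, -0.57, -0.70 and -0.66 for the deviations), and their sum was 40.7 FPKM in SAP-24h replicate 1, the lowest of the 30 libraries. Without that rat r was -0.60, -0.52, -0.44 and -0.54 in the same order. Stat3 followed Socs3 more closely, with r = 0.90 (rho = 0.86) and r = 0.90 for the deviations. Osm and Osmr had r = 0.88 and r = 0.84 with Socs3. These are descriptions over libraries that share group, depth and cell composition, and no p is given.

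**Figure D5:**
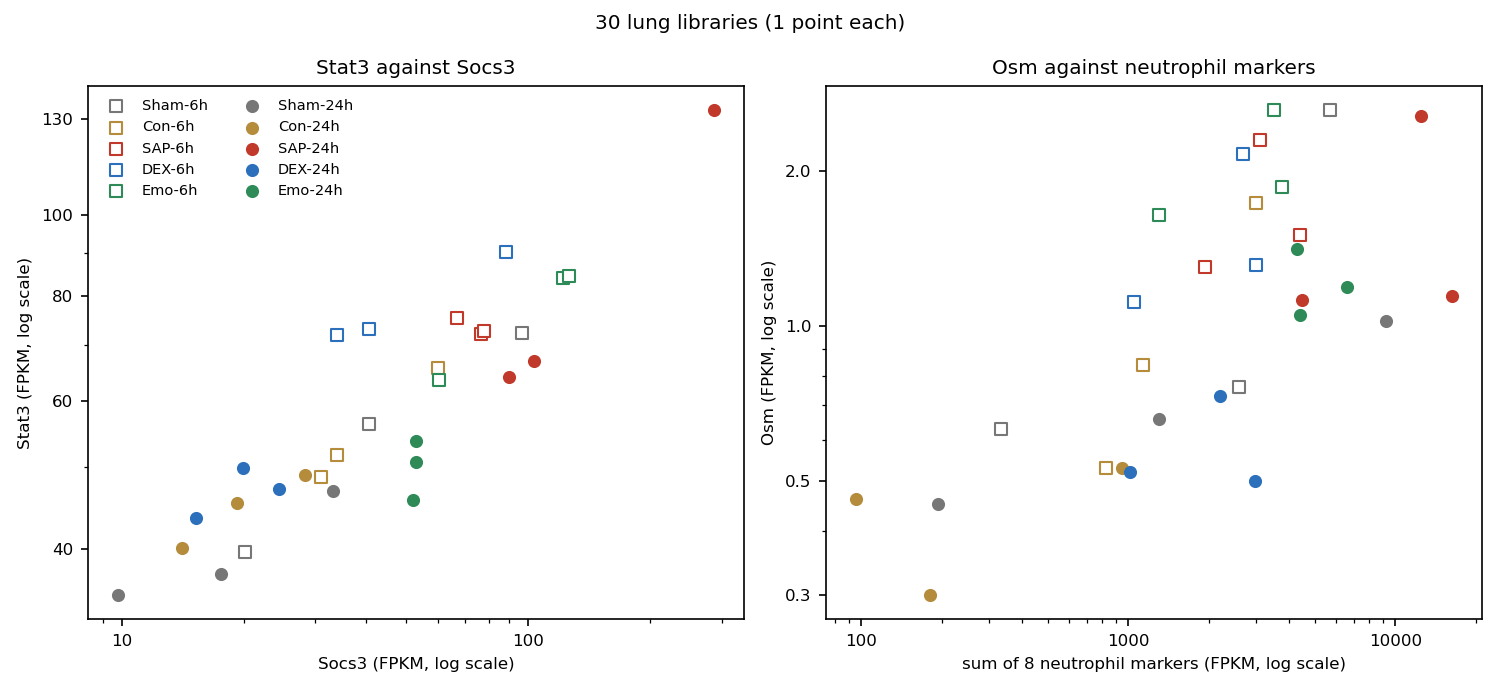
Stat3 against Socs3 (left) and Osm against the sum of 8 neutrophil markers (right), all in FPKM on logarithmic axes, in 30 libraries; each point is a rat, open squares are 6 hours and filled circles 24 hours, and colours are groups. SAP-24h replicate 1 stands at the top right on the left side with 287 FPKM of Socs3 and 133 FPKM of Stat3, and the Con-24h rats lie at low neutrophil sums and low Osm.

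Genes whose log2 CPM (counts scaled to library size) followed each family gene most closely over the 30 libraries were sought among 12362 others with a mean of at least 1 FPKM. For Stat3 they were Gpr4, Myd88 and Tnfrsf1a, with r of 0.96, 0.96 and 0.95. For Osm they were C1rl, Slpi and Pram1 (0.93, 0.90 and 0.90), for Osmr B4galt5, Pim1 and Sptlc2 (0.87, 0.86 and 0.86), and for Il6st Bcl6, Otud4 and Ralgapa2 (0.88, 0.86 and 0.86). Il6r was followed by Elmsan1, Slc25a15 and Tmem2 (0.91, 0.91 and 0.90), and Lifr by Stard13, Zfp608 and Meox2 (0.83, 0.82 and 0.82). Likeness was lower for the scarce ligands, with Hpgd first for Il11 (0.76), Sox9 first for Lif (0.66) and Aen first for Il6 (0.79), and the Il6 value dropped to 0.56 without the 2 libraries farthest from its median.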

How the data were processed

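RNA was measured in 30 rat lungs. The authors clipped adaptors, mapped reads with TopHat2 (2 mismatches allowed, rat_ensembl_v6), discarded reads with several positions, counted the rest on genes (the counting program is not given in the sources used here) and deposited these counts without normalization. A table of FPKM to 2 decimals, deposited by the authors, gave levels; all 30 libraries were mapped to groups from their titles. Counts were analysed in R 4.3.3 with edgeR 4.0.16: filterByExpr (minimum count 10, total 15), TMM scaling and a quasi-likelihood model of 10 groups, Benjamini-Hochberg adjusted over 15934 genes in each of 21 comparisons and 3 interactions. Levels are FPKM. Likeness used TMM log2 CPM (prior count 2). Python 3.11.15, scipy 1.17.1 and matplotlib 3.10.9 did the rest. The steps were tested on simulated data.

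The study's quality table gives the taurocholate-infused rats lower shares of uniquely mapped reads than the Sham and Con rats, and at 24 hours the SAP, DEX and Emo rats do not overlap in it either, so mapping and group cannot be told apart in these comparisons.

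The 9 genes and all lists were chosen with earlier results of these data known. The text names all 9 genes, list genes that were called (at most the 3 largest changes per direction, list and comparison) and the 3 genes most like each of the 9. Marker lists of 13 cell types were used, and those whose calls the report does not give for SAP-24h vs Sham-24h had no call there or 1 call (alveolar type 1, Aqp5; mesothelial, Krt19). List genes without exactly 1 row were left out, among them Il31, Mcl1, Serpina3n, Rc3h1, Hba-a1, Grb2, Tnf and Tsc22d3. Same-numbered replicates deviated together by the rule used (every r over 0.1) in DEX-24h vs DEX-6h alone (r = 0.212, 0.221 and 0.23), where a replicate block changed no call of the family. Alternatives were RLE scaling, DESeq2 1.42.0, other filters, models of the compared groups, a replicate block, other thresholds and each library left out.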

Additional observations from a re-analysis of the deposited data

Results flagged for a closer look

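For Il6, the effect of Emo against SAP at 24 hours minus that at 6 hours passed the test of the difference, at -8.79 on the log2 scale (SE 2.15, edgeR's quasi-likelihood interaction contrast, adjusted p = 0.0326). Il6 passed the filter on low counts only through SAP-24h, a term of this contrast, and with the compared groups alone in the model 0 of the 9 genes were called. At 6 hours the reads were 5, 0 and 36 in Emo-6h and 2, 1 and 1 in SAP-6h, and at 24 hours 5, 4 and 0 in Emo-24h and 406, 3 and 23 in SAP-24h. At 6 hours 2 of 3 Emo-6h rats had more reads than any SAP-6h rat, and at 24 hours 2 of 3 SAP-24h rats had more than any Emo-24h rat. Leaving out 1 library gave values from -9.41 to -5.19 with adjusted p-values from 0.0112 to 0.166, and 7 of 12 such values did not pass. Single outlying libraries were not tested for in groups of 3 rats.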

How the results depend on the processing

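The number of family genes called changed with the model, the tool, the threshold and the rats included. With the compared groups alone in the edgeR model, SAP-24h vs Sham-24h called 0 genes instead of 4, SAP-24h vs Con-24h 1 instead of 6, DEX-24h vs SAP-24h 0 instead of 4, Emo-24h vs SAP-24h 0 instead of 1, SAP-24h vs SAP-6h 0 instead of 1, and Emo vs SAP at 24 minus 6 hours 0 instead of 1. Such models have fewer rats to estimate the spread. For them, and for every count with a rat left out, no share of all genes in the same fit is given. The lower counts are therefore not read as particular to the family. Emo-24h vs SAP-24h called 2 with RLE scaling, 2 without a filter and 2 with DESeq2, since the Stat3 change crossed 2-fold. DESeq2 called 2 in SAP-24h vs SAP-6h, 3 in DEX vs SAP and 3 in Emo vs SAP at 24 minus 6 hours, and in these 3 contrasts 2.59%, 0.751% and 2.58% of 22892 genes (3.04% in Emo-24h vs SAP-24h). The stricter filter left 0 in Emo-24h vs Emo-6h. Without the 2-fold minimum the counts were 2 in DEX-6h vs Sham-6h, 3 in Emo-24h vs SAP-24h, 1 in DEX-24h vs Sham-24h, 4 in DEX-24h vs DEX-6h and 3 in Emo-24h vs Emo-6h, when 5.16%, 3.56%, 2.7%, 13.6% and 17.3% of all genes were higher and 4.59%, 5.02%, 4.27%, 12.3% and 16.8% lower by the same rule. At an unadjusted p with the 2-fold minimum they were 2 in Emo-6h vs Sham-6h, 1 in Con-24h vs Con-6h, 1 for SAP vs Sham, 5 for DEX vs SAP and 4 for Emo vs SAP at 24 minus 6 hours, when 3.35%, 3.4%, 6.27%, 4.85% and 8.78% of all genes were counted by that rule.

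Leaving out each rat in turn gave 1 to 2 in DEX-6h vs Sham-6h, 0 to 4 in SAP-24h vs Sham-24h, 3 to 6 in SAP-24h vs Con-24h, 0 to 4 in DEX-24h vs SAP-24h, 0 to 2 in Emo-24h vs SAP-24h, 0 to 2 in SAP-24h vs SAP-6h, 0 to 2 in DEX-24h vs DEX-6h, 0 to 1 in Emo-24h vs Emo-6h and 0 to 3 for Emo vs SAP at 24 minus 6 hours. With the replicate block, 24 of 24 counts stayed within 1.5 times (4 in SAP-24h vs Sham-24h), though Il6 in SAP-24h vs Con-24h (3.06, adjusted p = 0.0735) and Stat3 in DEX-24h vs SAP-24h (-0.99, under 2-fold) were no longer called. Of 361 alternative log2 fold changes none changed direction, 289 kept their side of the threshold, 64 lost the call and 8 gained one. Groups of 3 rats, few reads for Il6, Il11 and Lif, and a single SAP-24h rat set the limits.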
